A study of Rattus norvegicus with 8 samples.

Results

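The genes described here are the chemokines, the interleukins and their receptors measured in rat undifferentiated and differentiating spermatogonia and in spermatocyte-enriched testis cells. They were taken from the gene symbols of the deposited count table, as every symbol that starts with Ccl, Cxcl, Cx3cl, Xcl, Ccr, Cxcr, Ackr, Cx3cr or Il followed by a digit. This gave 124 of 16764 symbols, of which 69 encode ligands and 55 encode receptors or binding proteins. The rule reads symbols and no measured value.

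RNA was sequenced from Brown Norway germ cells in 3 groups of 2 libraries each. The undifferentiated spermatogonia (USg) came from a spermatogonial stem cell line kept in SG Medium. The differentiating spermatogonia (DSg) were the same line after 7 days on laminin, of which the last 120 h were in SD Medium, which supplies all-trans-retinoic acid and neuregulin-1. The spermatocyte-enriched cells (Spc) were not from the line. They were primary testis germ cells that did not attach to plastic, collagen-I or laminin during 2.5 days in a 1:1 mix of DMEM and Ham's F12 with 10% FBS. Spc therefore differs from both other groups in source, medium, serum and selection as well as in stage, and these cannot be told apart. The USg titles carry the same T120 as the DSg titles, although the extraction protocol dates the USg RNA to day 0, ahead of the laminin culture, so a match of the line's groups for time is uncertain. The labels speak of replicate cultures for the line but do not say whether the Spc libraries came from separate animals, so the p-values measure the spread between these libraries, which may in part be technical. The series' 2 Foxa2 ChIP samples were not used here.

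Chemokines are small secreted proteins that draw leukocytes along a gradient by way of receptors coupled to inhibitory G proteins. Interleukins are secreted signals of several families. The interleukin-1 and interleukin-17 families signal mainly to NF-kB, and the interleukin-6 family signals through the shared receptor chain gp130 to JAK kinases and STAT3. In the testis, Sertoli cells, peritubular cells, Leydig cells and resident macrophages are known sources of such signals.

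Library totals ran between 2657291 counts in DSg 1 and 5697165 in USg 2. Ribosomal RNA genes took 7.81% of the counts in USg 1 and 12.4% in DSg 1, against 0.00377% to 0.734% in the other 4 libraries. DSg 2 also stood apart at the low end of expression. Of 1045 olfactory receptor genes, assumed here to have little expression in any of the groups, 96.7% had at least 1 count in DSg 2, against 23.3% to 64.1% in the other libraries. Their highest single counts were 41 in USg 1, 27 in DSg 2, 71 in Spc 1 and 86 in Spc 2. Some of these genes may therefore be expressed, and the background drawn from them is approximate. The labelled cell types were checked against marker genes. All 7 spermatocyte markers tested (Sycp1, Sycp3, Dmc1 and others) were higher in Spc than in USg, and 4 of 5 markers of undifferentiated spermatogonia were lower in Spc than in USg. The other, Id4, was higher, at 129 CPM (read counts scaled to the library's size) in Spc, against 48.2 CPM in USg. Of 3 markers of differentiating spermatogonia, Kit was higher in DSg, at 579 CPM, against 74.6 CPM in USg, while Sohlh1 (66.8 CPM in DSg and 95.1 in USg) and Dmrtb1 (6.94 and 4.30) were not called between them. Of the 5 markers of undifferentiated spermatogonia, Gfra1, Ret and Etv5 were lower in DSg than in USg, and Zbtb16 and Id4 were not called. In Spc vs DSg, 6 of the 7 spermatocyte markers were higher, and Sycp1 was not called.

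Most of the set was present at low counts. At least 1 count was found for 95 and 104 of the 124 genes in USg 1 and USg 2, for 83 and 122 in DSg 1 and DSg 2, and for 119 and 114 in Spc 1 and Spc 2. Thinned to the depth of DSg 1, the numbers were 94.8 and 84.3 in USg, 83 and 122 in DSg and 105 in each Spc library. The share in DSg 2, 98.4%, was close to the share of olfactory receptor genes in the same library, so a few counts in DSg 2 were read here as background. The 95th percentile of the olfactory receptor counts was 10 in DSg 2 and 2 to 4 in the other libraries. Above that level stood 49 and 63 of the set in the USg libraries, 39 and 60 in DSg, and 79 and 78 in Spc. A count of 0 allows a true level of up to 3 counts, and such limits cover counting error only.

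**Figure D1:**
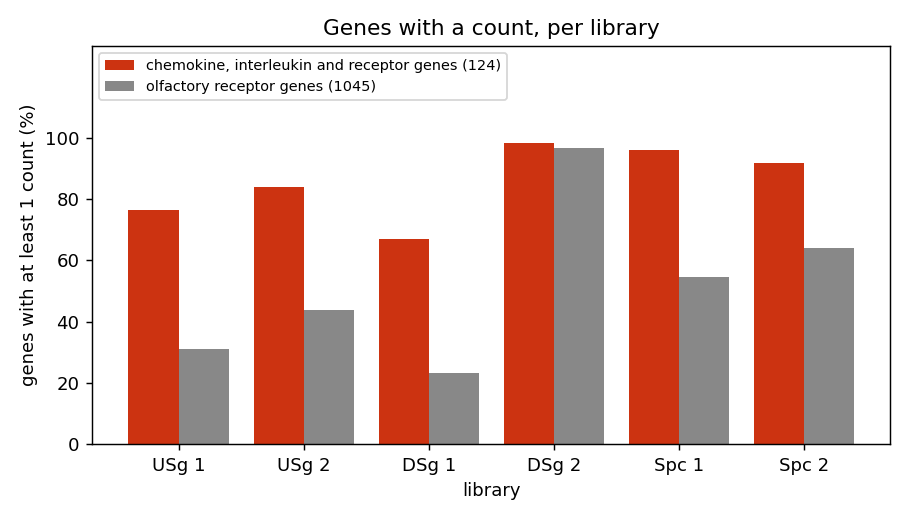
Percentage of genes with at least 1 count in each library, for the 124 chemokine, interleukin and receptor genes (red) and for 1045 olfactory receptor genes (grey). In DSg 2 both bars stand near the top, at 98.4% and 96.7%, while in DSg 1 they are at 66.9% and 23.3%.

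Raw counts of a gene are given for library 1 and then library 2 of each group, in the order USg, DSg and Spc where the groups are not repeated. Levels are CPM, scaled by TMM factors, given as mean ± SD over the 2 libraries, and fold changes are log2 values ± SE from 1 edgeR quasi-likelihood fit of the 6 libraries. The p-values were adjusted by the Benjamini-Hochberg method over all 12210 genes that passed the low-count filter, and a gene is called where this value is under 0.05. Of the 124 genes, 61 passed the filter and 63 did not. For 23 that passed, Spc was the only group with both libraries over the filter's cut (16 of the 23 are among the called). Some of the 23, such as Cxcl1, also had single USg and DSg libraries over the cut, which is enough to pass without Spc. For the others, a higher level in Spc is partly built into the filter.

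The 2 Spc libraries held far more RNA of this set than the line did, and chemokines were most of the difference. The summed level of the 124 genes averaged 653 ± 27.7 CPM in USg, 604 ± 192 in DSg and 3745 ± 117 in Spc (SD, n = 2 each). Ligands summed to 169 and 111 CPM in the USg libraries, 63.0 and 175 in DSg, and 2566 and 2411 in Spc. Receptors and binding proteins summed to 465 and 562 CPM in USg, 405 and 564 in DSg, and 1262 and 1252 in Spc. Ccl2 made up 44.4% and 42.4% of all counts of the set in the Spc libraries, shares of reads that are not corrected for gene length. Without Ccl2 and Il6st the sums were 493 and 551 CPM in USg, 373 and 639 in DSg, and 1384 and 1347 in Spc, so the Spc libraries remained above the other 4. In such bulk libraries, more cells of one type and more RNA per cell cannot be told apart.

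By the edgeR test, 24 members of the set were higher in Spc than in USg, where 17.9% of all tested genes were called higher, and 2 (Il17rd and Il33) were lower, where 16.6% of all tested genes were called lower. Ligands held 19 of the 24 higher calls and receptors or binding proteins 5. Among the members called in any comparison, 16, most of them ligands, had both libraries over the filter's cut in Spc alone. Most of these passed the filter only through Spc. Both the number of higher calls and the excess of ligands are therefore partly built into the filter. The remaining 35 tested members were not called. Against DSg, 18 members were higher in Spc, with 14.8% of all tested genes higher, and 3 (Ackr3, Il17rd and Il9r) were lower, with 11.7% lower. Both comparisons use the same Spc libraries, so they are not independent. Between DSg and USg, no member was called higher, with 0.565% of all tested genes higher, and 1 (Il17rd) was lower, with 1.92% lower. At an unadjusted edgeR p under 0.05, 8 members were higher (8.26% of all tested genes) and 6 lower (10.9%) in DSg than in USg, and DESeq2 called 0 higher (1.96%) and 2 lower (4.44%). Over all 124, untested members included, both Spc libraries lay above both USg libraries for 56 members (34.2% of all symbols) and below them for 16 (28.4%).

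**Figure D2:**
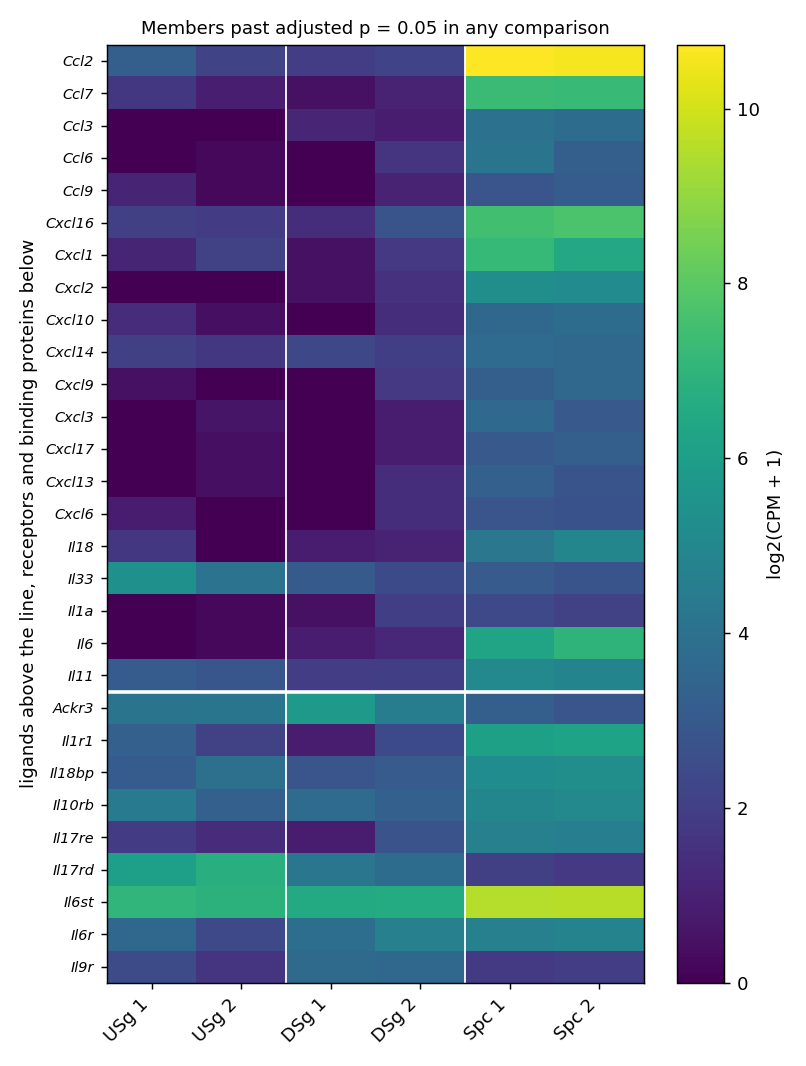
Level of each of the 29 genes called in any comparison, as log2(CPM + 1) by colour, in each of the 6 libraries (columns), with ligands above the white line and receptors or binding proteins below it. Ccl2, Ccl7, Cxcl16, Cxcl1 and Il6 are bright in both Spc libraries and dark in the other 4, while Il17rd runs the other way.

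Leaving out single libraries moved these counts. In Spc against USg, the number higher was 15 without Spc 1 (9.70% of all tested genes), 16 without Spc 2 (9.92%) and between 21 and 30 without each of the other libraries (15.2% to 18.1%). With USg 1 and DSg 1 both left out, a choice made after the data were seen, it was 40 higher (29.1% of all tested genes) and 6 lower (29.7%), and the 24 higher in the full fit were all among the 40. Of the 24, 13 kept the call in each of the 17 alternatives, and of the 18 called higher in Spc against DSg, 10 did.

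Among the CC chemokines, 20 in the set and 9 tested, 5 were higher in Spc than in USg and none lower, and 4 were higher than in DSg. Of all tested genes, 17.9% were higher and 16.6% lower in Spc than in USg, and 14.8% were higher in Spc than in DSg. Ccl2, the monocyte attractant that acts through CCR2, had 22 and 20 counts in USg, 7 and 13 in DSg and 8624 and 7129 in Spc. Both Spc libraries stood far above the other 4 and were close to each other. Its level averaged 6.03 ± 3.48 CPM in USg, 3.16 ± 0.475 in DSg and 1626 ± 104 in Spc. The log2 fold change was 8.16 ± 0.51 for Spc vs USg (edgeR adjusted p = 1.01e-04) and 8.97 ± 0.54 for Spc vs DSg (edgeR adjusted p = 1.02e-04). Between DSg and USg it was -0.82 ± 0.50 and was not called (edgeR adjusted p = 0.411).

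Ccl7, a further monocyte attractant, followed the same pattern at 6 and 5 counts in USg, 1 and 4 in DSg and 801 and 679 in Spc. This gave a log2 fold change of 6.72 ± 0.53 for Spc vs USg (edgeR adjusted p = 1.35e-04) and 7.53 ± 0.57 for Spc vs DSg (edgeR adjusted p = 2e-04). Ccl3, a ligand of CCR1, had 0 and 0 counts in USg, 3 and 3 in DSg and 76 and 59 in Spc. Against the limit of 3 counts over the USg group, Ccl3 was at least 38.2-fold higher in Spc than in USg (edgeR adjusted p = 0.00118). Against DSg its log2 fold change was 3.78 ± 0.73 (edgeR adjusted p = 0.00827), a call that was lost without Spc 1, with adjusted p-values between 1.19e-05 and 0.0858 over its alternatives.

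Ccl6 and Ccl9, which in mouse act through CCR1, had most of their counts in Spc. Ccl6 had 0 and 1 counts in USg, 0 and 8 in DSg and 85 and 39 in Spc, a ratio of 105 for Spc over USg with an exact 95% interval of 18.6 to 4192 (edgeR adjusted p = 0.00641). Against DSg its log2 fold change was 3.36 ± 1.01 (edgeR adjusted p = 0.038), and that call was lost without DSg 1, without Spc 1, by limma-voom and with total-count or upper quartile scaling, with adjusted p-values between 1.71e-04 and 0.308. Ccl9 had 3 and 1 counts in USg, 0 and 4 in DSg and 31 and 36 in Spc. Its log2 fold change for Spc vs USg was 3.60 ± 1.14 (edgeR adjusted p = 0.0374), lost without Spc 1, Spc 2 or USg 2 and with total-count or upper quartile scaling (adjusted p between 3.75e-05 and 0.295).

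The other CC chemokines showed no called difference. Ccl27, a skin-homing T cell attractant, had 15 and 19 counts in USg, 13 and 25 in DSg and 52 and 44 in Spc, with a log2 fold change of 1.15 ± 0.55 for Spc vs USg (edgeR adjusted p = 0.136). Ccl11, Ccl19 and Ccl24 were tested at no more than 24 counts in any library. Of the 11 that did not pass the filter, Ccl4 had 0 and 1 counts in USg, 0 and 5 in DSg and 11 and 10 in Spc, and Ccl5 had 4 and 0, 0 and 5, and 11 and 8 in the same order. Ccl12 reached 7 and 12 counts in Spc, against 0 and 2 in USg. Ccl22 and Ccl25 reached their highest count, 11 each, in DSg 2, at the level of the olfactory receptor background there.

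All 12 CXC chemokines passed the filter. For 9 of them Spc was the only group with both libraries over its cut, though Cxcl1 and Cxcl11 among these would pass without Spc. In Spc, 10 were higher than in USg and 6 were higher than in DSg, with none lower in either. Of all tested genes, 17.9% were higher and 16.6% lower in Spc than in USg. In Spc vs DSg the shares were 14.8% and 11.7%. In the annotation Cxcl1, Cxcl2, Cxcl3, Cxcl6, Cxcl9, Cxcl10, Cxcl11 and Cxcl13 share chromosome 14, while Cxcl16 is on chromosome 10 with Ccl2, Ccl3, Ccl6, Ccl7 and Ccl9. The promoters of the ligands with at least 30 CPM in Spc that were higher in Spc in both comparisons are shown, because NF-kB and AP-1 are the known regulators of many genes of this kind. Each is the 150 bases before the gene's start in RefSeq, build GRCr8, written 5′ to 3′ on the gene's strand. Capitals mark a match to the NF-kB consensus in Cxcl1, Cxcl2 and Il6 and a match to the AP-1 motif TGANTCA in Ccl7 and Il11, and Cxcl16 held no match to either in this window.
Ccl7, chr10:67513945-67514094, + strand: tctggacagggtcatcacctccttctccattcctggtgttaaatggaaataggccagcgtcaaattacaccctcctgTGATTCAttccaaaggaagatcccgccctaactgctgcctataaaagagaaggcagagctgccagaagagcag
Cxcl1, chr14:17479322-17479471, - strand: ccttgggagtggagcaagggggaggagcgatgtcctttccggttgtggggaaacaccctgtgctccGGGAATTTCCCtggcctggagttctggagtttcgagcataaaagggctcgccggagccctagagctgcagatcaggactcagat
Cxcl2, chr14:17467256-17467405, - strand: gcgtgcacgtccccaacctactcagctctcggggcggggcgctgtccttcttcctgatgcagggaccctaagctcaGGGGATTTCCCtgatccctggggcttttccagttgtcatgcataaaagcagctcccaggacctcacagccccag
Cxcl16, chr10:55669951-55670100, - strand: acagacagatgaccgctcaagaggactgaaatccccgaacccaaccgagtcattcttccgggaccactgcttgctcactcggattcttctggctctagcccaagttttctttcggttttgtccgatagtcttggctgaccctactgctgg
Il6, chr4:5894576-5894725, - strand: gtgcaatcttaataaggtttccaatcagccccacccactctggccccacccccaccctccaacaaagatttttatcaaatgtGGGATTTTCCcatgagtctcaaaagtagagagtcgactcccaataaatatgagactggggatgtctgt
Il11, chr1:78098472-78098621, + strand: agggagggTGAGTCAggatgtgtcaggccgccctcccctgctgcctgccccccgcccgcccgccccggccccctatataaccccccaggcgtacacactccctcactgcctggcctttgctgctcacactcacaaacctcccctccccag

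The NF-kB matches in Cxcl1 and Cxcl2 stand 84 to 74 and 74 to 64 bases before the start, and that in Il6 stands 68 to 59 bases before it. The AP-1 match of Ccl7 lies 73 to 67 bases and that of Il11 142 to 136 bases before the start. Of the 124 genes, 96 had a promoter in the RefSeq table, and Ccl2 is named only. Searched on both strands of 150-base windows, the NF-kB consensus was found in 2.01% of all 33469 promoters, in 11 of the 96 (11.5%) and in 6 of the 20 (30%) that were called higher in Spc than in USg and had an entry, namely Cxcl1, Cxcl2, Cxcl6, Il6, Ccl9 and Il1r1. TGANTCA was found in 3.69% of all promoters, in 10 of the 96 (10.4%) and in 5 of the 20 (25%), namely Ccl7, Cxcl10, Cxcl14, Il11 and Il1a. Overlapping matches within a promoter were counted once. The 33469 are all entries of the promoter set, while each member is represented by its first entry, so the shares are not strictly alike. Most of the called genes with an NF-kB match also passed the filter through Spc alone. These shares describe letters in a window, and neighbouring chemokine genes share ancestry, so they are not independent.

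Among the neutrophil attractants, which act through CXCR2, Cxcl1 had 3 and 19 counts in USg, 1 and 9 in DSg and 734 and 410 in Spc. Every Spc count was above every other by a wide margin, although the Spc libraries differed from each other. Its log2 fold change was 5.53 ± 0.64 for Spc vs USg (edgeR adjusted p = 4.45e-04) and 6.21 ± 0.69 for Spc vs DSg (edgeR adjusted p = 5.53e-04). Cxcl2 had 0 and 0 counts in USg, 1 and 7 in DSg and 195 and 163 in Spc. It was at least 101-fold higher in Spc than in USg (edgeR adjusted p = 4.04e-04), and its log2 fold change for Spc vs DSg was 4.86 ± 0.64 (edgeR adjusted p = 0.00169).

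Cxcl3 and Cxcl6, of the same functional class, were present at lower counts. Reads of the related Cxcl1, Cxcl2 and Cxcl3 may have been split between these 3 genes. Cxcl3 had 0 and 3 counts in USg, 0 and 3 in DSg and 60 and 32 in Spc, a ratio of 26.0 (95% interval 8.64 to 129) for Spc over USg (edgeR adjusted p = 0.0125) and of 19.6 (6.51 to 96.9) for Spc over DSg (edgeR adjusted p = 0.0227). Cxcl6 had 2 and 0 counts in USg, 0 and 6 in DSg and 31 and 25 in Spc, a ratio of 23.8 (6.28 to 201) for Spc over USg (edgeR adjusted p = 0.0454). Both calls in Spc vs USg rested on the libraries used: that of Cxcl3 was lost without Spc 1 (adjusted p between 4.33e-05 and 0.154 over its alternatives), and that of Cxcl6 without Spc 1, Spc 2 or USg 2 and with total-count or upper quartile scaling (3.29e-05 to 0.227). The call of Cxcl3 in Spc vs DSg was lost without DSg 1 or Spc 1 (1.89e-04 to 0.24).

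Cxcl16, made as a membrane-bound ligand of CXCR6, kept its calls in every alternative. It had 8 and 15 counts in USg, 4 and 22 in DSg and 896 and 953 in Spc. Its level averaged 2.88 ± 0.294 CPM in USg, 3.77 ± 3.05 in DSg and 192 ± 21.9 in Spc. The log2 fold change was 6.06 ± 0.55 for Spc vs USg (edgeR adjusted p = 2.14e-04) and 5.58 ± 0.53 for Spc vs DSg (edgeR adjusted p = 3.13e-04). Its span in the annotation overlaps that of Zmynd15, which had 8 and 6 counts in USg, 4 and 27 in DSg and 57 and 56 in Spc, far fewer than Cxcl16 in Spc.

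The interferon-induced ligands of CXCR3 were present at lower counts. Cxcl9 had 1 and 0 counts in USg, 0 and 9 in DSg and 43 and 50 in Spc, a ratio of 79.0 (13.8 to 3152) for Spc over USg (edgeR adjusted p = 0.0136). Cxcl10 had 4 and 2 counts in USg, 0 and 6 in DSg and 58 and 59 in Spc, with a log2 fold change of 3.85 ± 1.02 for Spc vs USg (edgeR adjusted p = 0.019) and 3.69 ± 1.01 for Spc vs DSg (edgeR adjusted p = 0.0271). Cxcl11 had 3 and 35 counts in USg, 1 and 10 in DSg and 64 and 42 in Spc and was not called (Spc vs USg 1.45 ± 0.83, edgeR adjusted p = 0.205). The calls of Cxcl10 were lost without Spc 2 or USg 2 against USg (adjusted p between 2.09e-06 and 0.0712) and without DSg 1, Spc 1 or Spc 2 or with total-count scaling against DSg (7.11e-05 to 0.0816). The spans of Cxcl10 and Cxcl11 overlap that of Art3, which had 45 and 119 counts in USg, 43 and 82 in DSg and 731 and 679 in Spc, many more than either chemokine. Because the strand setting of the counting is not given, reads of Art3 in these genes cannot be told apart from their own.

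The remaining CXC ligands have other receptors. Cxcl13, the B cell attractant that acts through CXCR5, had 0 and 2 counts in USg, 0 and 6 in DSg and 44 and 27 in Spc, a ratio of 30.1 (8.04 to 254) for Spc over USg (edgeR adjusted p = 0.0188). Cxcl17, a mucosal chemokine, had 0 and 2, 0 and 3, and 36 and 39 counts, a ratio of 31.8 (8.51 to 268) over USg (edgeR adjusted p = 0.0116) and 16.0 (5.27 to 79.4) over DSg (edgeR adjusted p = 0.027). Cxcl14 had 8 and 13 counts in USg, 10 and 11 in DSg and 64 and 50 in Spc, with a log2 fold change of 2.14 ± 0.58 for Spc vs USg (edgeR adjusted p = 0.0206). In Spc vs USg the call of Cxcl13 was lost without Spc 1 (adjusted p between 7.35e-05 and 0.154), that of Cxcl17 without Spc 1 or Spc 2 (3.65e-05 to 0.11) and that of Cxcl14 without Spc 1, Spc 2 or USg 2 (2.06e-04 to 0.241). In Spc vs DSg the call of Cxcl17 was lost without either Spc library and with total-count scaling (4.04e-04 to 0.22).

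Cxcl12, which in mouse helps to hold spermatogonial stem cells in their niche, was unlike the rest of the CXC family. It had 50 and 24 counts in USg, 22 and 50 in DSg and 72 and 56 in Spc, and its levels, 11.8 ± 10.6, 11.2 ± 3.23 and 13.2 ± 1.41 CPM in the same order, overlapped. Cxcl12 had a log2 fold change of 0.22 ± 0.65 for Spc vs USg (edgeR adjusted p = 0.813) and -0.01 ± 0.68 for DSg vs USg (edgeR adjusted p = 0.996). With USg 1 and DSg 1 left out, the second was 1.50 (edgeR adjusted p = 0.00984), with 1 library left in each of these groups. Its signalling receptor Cxcr4 had 35 and 48 counts in USg, 4 and 14 in DSg and 56 and 34 in Spc. Both DSg libraries lay below the other 4 in level, at 2.69 ± 1.52 CPM, against 11.0 ± 3.51 in USg and 9.22 ± 2.57 in Spc. Neither difference was called: the log2 fold change of Cxcr4 was -1.96 ± 0.63 for DSg vs USg (edgeR adjusted p = 0.147) and 1.72 ± 0.62 for Spc vs DSg (edgeR adjusted p = 0.0713).

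Ackr3, the atypical receptor that takes up CXCL12, had another order of levels, with 43 and 95 counts in USg, 131 and 84 in DSg and 43 and 28 in Spc. Both DSg libraries lay above the other 4 in level, at 37.8 ± 21.4 CPM, against 16.8 ± 0.229 in USg and 7.29 ± 1.68 in Spc. Ackr3 was lower in Spc than in DSg, with a log2 fold change of -2.36 ± 0.49 (edgeR adjusted p = 0.00871). That call was lost without DSg 1, where the value was -1.45 (adjusted p between 1.46e-04 and 0.0685 over its alternatives). The difference between DSg and USg, 1.16 ± 0.47, was not called (edgeR adjusted p = 0.229) and was 0.24 without DSg 1.

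The chemokine receptors gave no call in any comparison. Of 16, only Cx3cr1, Cxcr4 and Cxcr5 passed the filter. Without Cxcr4 the other 15 together had 20 and 48 counts in USg, 15 and 140 in DSg and 59 and 67 in Spc, sums over 15 genes. The highest of these sums was in DSg 2. Ccr1, a receptor of the ligands Ccl3, Ccl6 and Ccl9 in mouse, had 0 and 1 counts in USg, 0 and 8 in DSg and 4 and 8 in Spc and was not tested. Cxcr2, the receptor of Cxcl1 and Cxcl2, had 1 and 6, 2 and 16, and 1 and 6 counts, and Cxcr6, the receptor of Cxcl16, had 2 and 1, 0 and 13, and 3 and 5. Cx3cr1 had 1 and 2, 2 and 12, and 13 and 17 counts, with an edgeR adjusted p of 0.0618 for Spc vs USg. Its ligand Cx3cl1 had 74 and 193 counts in USg, 17 and 64 in DSg and 120 and 108 in Spc. Both DSg libraries lay below the other 4 in level, and the log2 fold change of Cx3cl1 for DSg vs USg, -1.36 ± 0.46, was not called (edgeR adjusted p = 0.164). Cxcr5, the receptor of Cxcl13, had 9 and 19, 2 and 11, and 12 and 11 counts. Ccr9 and the scavenger Ackr2 reached 10 counts in DSg 2 only.

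**Figure D3:**
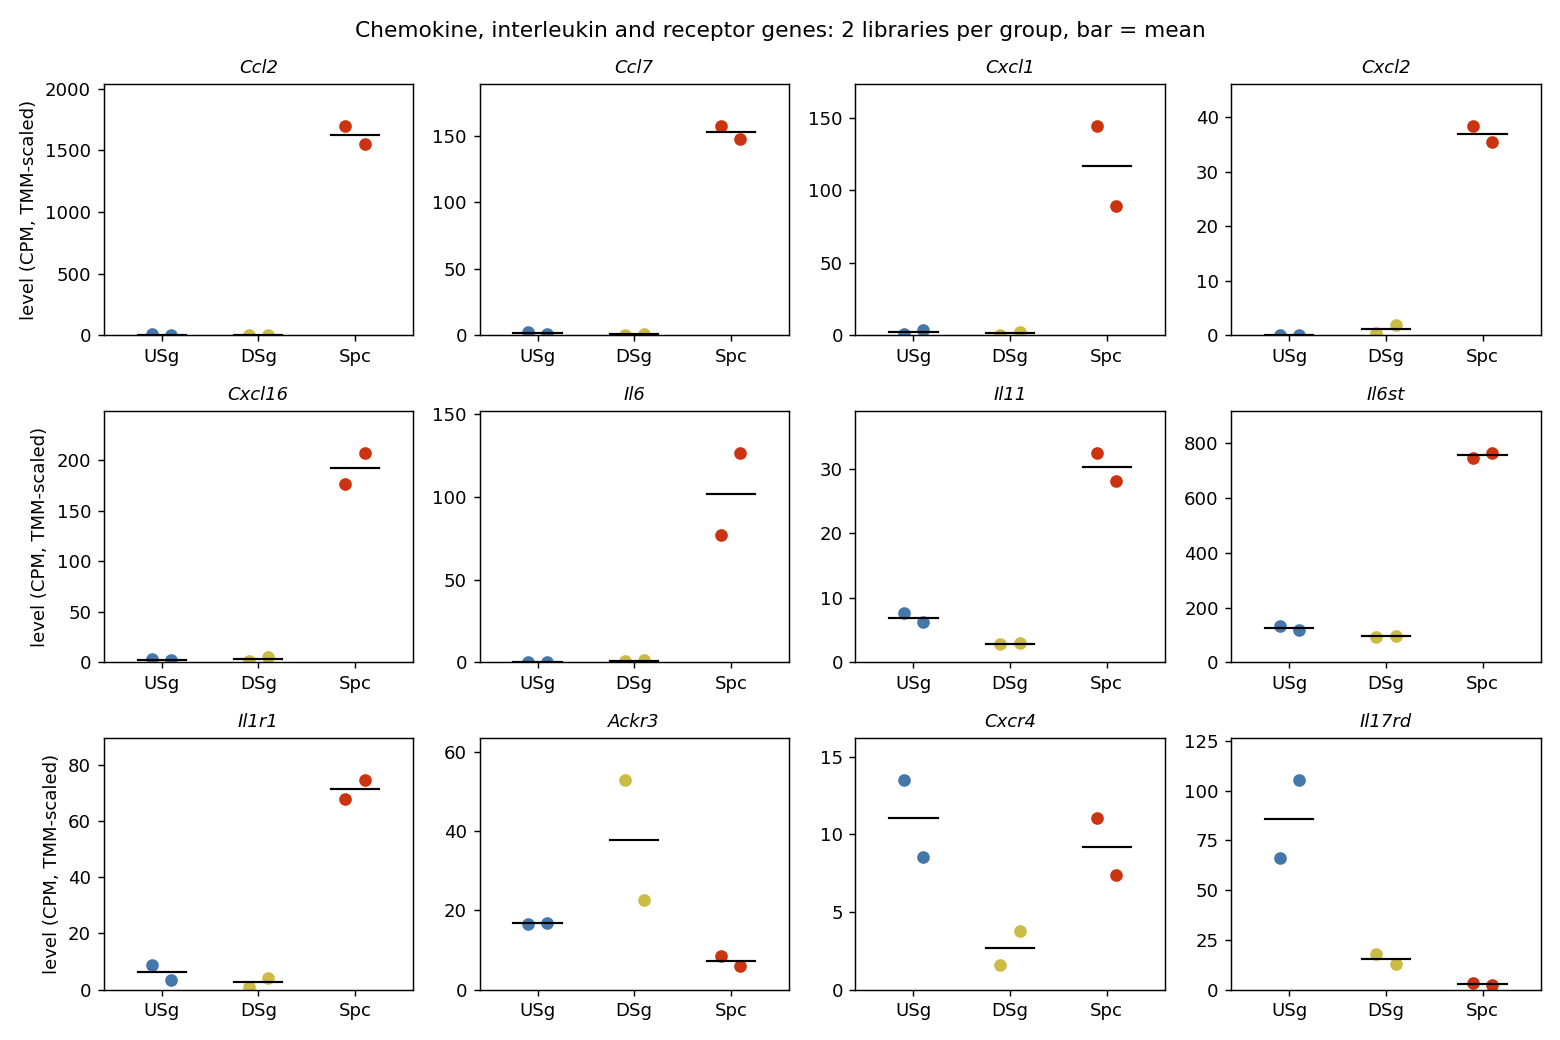
Level in CPM (TMM-scaled, linear axes that differ between panels) of 12 genes in the 2 libraries of each group, with the mean as a bar. Ccl2, Ccl7, Cxcl1, Cxcl2, Cxcl16, Il6, Il11, Il6st and Il1r1 are highest in Spc, Ackr3 is highest in DSg, Cxcr4 is lowest in DSg, and Il17rd is highest in USg at 85.7 ± 27.9 CPM.

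The interleukin-6 family gave both a ligand and a receptor side that were higher in Spc. Il6 had 0 and 1 counts in USg, 2 and 5 in DSg and 390 and 581 in Spc. In the line it was at or near the detection limit, and both Spc libraries were far above it. The ratio of Spc to USg was 824 with an exact 95% interval of 148 to 32596 (edgeR adjusted p = 1.11e-04), and the log2 fold change for Spc vs DSg was 6.47 ± 0.55 (edgeR adjusted p = 2.55e-04). Il11, a further cytokine that signals through gp130, had 20 and 35 counts in USg, 7 and 11 in DSg and 165 and 129 in Spc. The log2 fold change of Il11 was 2.13 ± 0.41 for Spc vs USg (edgeR adjusted p = 0.00455) and 3.37 ± 0.45 for Spc vs DSg (edgeR adjusted p = 0.00133). Without Spc 1 the call of Il11 against USg was lost (adjusted p between 1.1e-05 and 0.0534 over its alternatives).

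Il6st, which encodes gp130, had 343 and 665 counts in USg, 230 and 361 in DSg and 3777 and 3508 in Spc. Its replicates lay close together, at 125 ± 9.86 CPM in USg, 95.1 ± 3.03 in DSg and 754 ± 13.7 in Spc. The log2 fold change was 2.59 ± 0.29 for Spc vs USg (edgeR adjusted p = 3.91e-04) and 2.99 ± 0.29 for Spc vs DSg (edgeR adjusted p = 3.59e-04). Il6r, the chain that binds interleukin-6, had 29 and 23 counts in USg, 34 and 90 in DSg and 124 and 124 in Spc. It was higher in Spc than in USg, with a log2 fold change of 1.81 ± 0.54 (edgeR adjusted p = 0.03), lost without Spc 2, without USg 2 and with total-count scaling (adjusted p between 3.07e-06 and 0.0687). Against DSg the difference of Il6r was 0.43 ± 0.51 and was not called (edgeR adjusted p = 0.563).

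Il11ra1, which binds interleukin-11, differed between replicates of USg and DSg and was not called. It had 11 and 102 counts in USg, 29 and 101 in DSg and 111 and 128 in Spc (Spc vs USg 1.09 ± 0.63, edgeR adjusted p = 0.212). Its span overlaps that of Ccl27. Of the other receptors of these families, Il31ra was tested at 4 to 20 counts and not called, and Il12rb1, Il12rb2 and Il27ra reached their highest counts, 28, 22 and 23, in DSg 2. Il23a, at 5 to 24 counts, was not called, and Il12b had at most 11 counts, in DSg 2.

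Within the interleukin-1 family, the signalling receptor Il1r1 had 23 and 19 counts in USg, 2 and 16 in DSg and 345 and 343 in Spc. The Spc libraries stood apart from the other 4, at 71.3 ± 4.73 CPM, against 6.13 ± 3.88 in USg and 2.56 ± 2.47 in DSg. The log2 fold change of Il1r1 was 3.62 ± 0.62 for Spc vs USg (edgeR adjusted p = 0.00258) and 4.68 ± 0.67 for Spc vs DSg (edgeR adjusted p = 0.00173). Its ligands were rare. Il1a had 0 and 1 counts in USg, 1 and 11 in DSg and 21 and 15 in Spc, a ratio of 30.6 (5.15 to 1240) for Spc over USg (edgeR adjusted p = 0.0285), which was lost when any 1 of the USg or Spc libraries was left out (adjusted p between 0.00111 and 0.231). Il1b had 2 and 0 counts in USg, 2 and 8 in DSg and 8 and 4 in Spc and was not tested, and the antagonist Il1rn had 3 to 12 counts, with the most in DSg 2. The shared co-receptor chain Il1rap had 22 and 41, 25 and 50, and 21 and 19 counts and was not called, its nearest difference being -1.51 ± 0.50 for Spc vs DSg (edgeR adjusted p = 0.0549). The decoy receptor Il1r2, at 0 to 15 counts, and the interleukin-36 receptor Il1rl2, at 3 to 18 counts, were tested and not called.

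Interleukin-18 and its soluble inhibitor were both higher in Spc. Il18 had 6 and 0 counts in USg, 2 and 4 in DSg and 93 and 133 in Spc. Its log2 fold change was 4.72 ± 1.03 for Spc vs USg (edgeR adjusted p = 0.0081) and 4.57 ± 1.02 for Spc vs DSg (edgeR adjusted p = 0.0121), the second lost without DSg 1 or DSg 2 (adjusted p between 5.16e-09 and 0.0795). Its span overlaps those of Tex12 and Bco2, of which Tex12 had 114 and 164 counts in USg, 86 and 66 in DSg and 199 and 165 in Spc. The binding protein Il18bp had 20 and 83 counts in USg, 15 and 28 in DSg and 185 and 177 in Spc. Its log2 fold change was 1.70 ± 0.42 for Spc vs USg (edgeR adjusted p = 0.014), lost without either Spc library (adjusted p between 4.26e-04 and 0.072), and 2.45 ± 0.44 for Spc vs DSg (edgeR adjusted p = 0.005). The receptor chain Il18r1 had 21 and 21, 3 and 19, and 4 and 7 counts and was not called (Spc vs USg -2.30 ± 0.93, edgeR adjusted p = 0.0843).

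Il33, an alarmin kept in the nucleus until cells are damaged, was the 1 cytokine of the set that was lower in Spc than in USg. It had 105 and 90 counts in USg, 18 and 16 in DSg and 38 and 27 in Spc, so that both USg libraries were above the other 4. Its level averaged 28.3 ± 17.3 CPM in USg, 5.79 ± 2.10 in DSg and 6.68 ± 1.14 in Spc. Spc differed from USg by -2.06 ± 0.55 in log2 (edgeR adjusted p = 0.0199), lost without USg 1 or Spc 2 (adjusted p between 9.27e-04 and 0.0889). For DSg vs USg the log2 difference was -2.29 ± 0.58 and missed the threshold (edgeR adjusted p = 0.0776). Its receptor Il1rl1 had 11 and 15, 7 and 16, and 41 and 46 counts and was not called (Spc vs USg 1.42 ± 0.61, edgeR adjusted p = 0.103).

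The interleukin-17 receptors moved in different directions, and their ligands, Il17a, Il17b, Il17c, Il17f and Il25, had at most 8 counts in any library and were not tested. Il17rd, also known as Sef and known for its damping of FGF receptor signalling, had 171 and 592 counts in USg, 44 and 48 in DSg and 16 and 11 in Spc. The groups did not overlap, and the levels followed the order of the stages, at 85.7 ± 27.9 CPM in USg, 15.4 ± 3.43 in DSg and 2.77 ± 0.536 in Spc. Il17rd was the only member called in all 3 comparisons. It was lower in DSg than in USg by a log2 fold change of -2.49 ± 0.40 (edgeR adjusted p = 0.0205), in Spc than in USg by -4.93 ± 0.46 (edgeR adjusted p = 2.27e-04) and in Spc than in DSg by -2.44 ± 0.44 (edgeR adjusted p = 0.005). The call in DSg vs USg was lost without DSg 1 (log2 fold change -2.93, edgeR adjusted p = 0.114), without DSg 2 (-2.27, 0.198) and in a fit of only these 4 libraries. Its adjusted p ran between 7.4e-07 and 0.198 over the alternatives. Without either DSg library, 0 of all genes tested were called in DSg vs USg in either direction. The span of Il17rd overlaps that of Arhgef3, which had 105 and 165 counts in USg, 51 and 51 in DSg and 256 and 207 in Spc.

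Il17re, the receptor chain for interleukin-17C, had 7 and 9 counts in USg, 2 and 21 in DSg and 124 and 105 in Spc. Both Spc libraries were well above the rest. Its log2 fold change was 3.51 ± 0.74 for Spc vs USg (edgeR adjusted p = 0.00677) and 2.77 ± 0.70 for Spc vs DSg (edgeR adjusted p = 0.0198), the second lost with total-count scaling (adjusted p between 1.6e-05 and 0.0523). Il17ra, the chain shared by the family, had overlapping levels of 85.8 ± 15.4 CPM in USg, 103 ± 16.0 in DSg and 97.1 ± 14.8 in Spc. None of its 3 differences exceeded 0.26 in log2, with an SE of 0.32 or less, and none was called (edgeR adjusted p between 0.688 and 0.869). Il17rb had 10 and 3, 2 and 9, and 46 and 33 counts and was not called (Spc vs USg 2.04 ± 0.94, edgeR adjusted p = 0.126), and its span overlaps those of Actr8 and Chdh. Il17rc, at 18 to 37 counts, was not called.

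**Figure D4:**
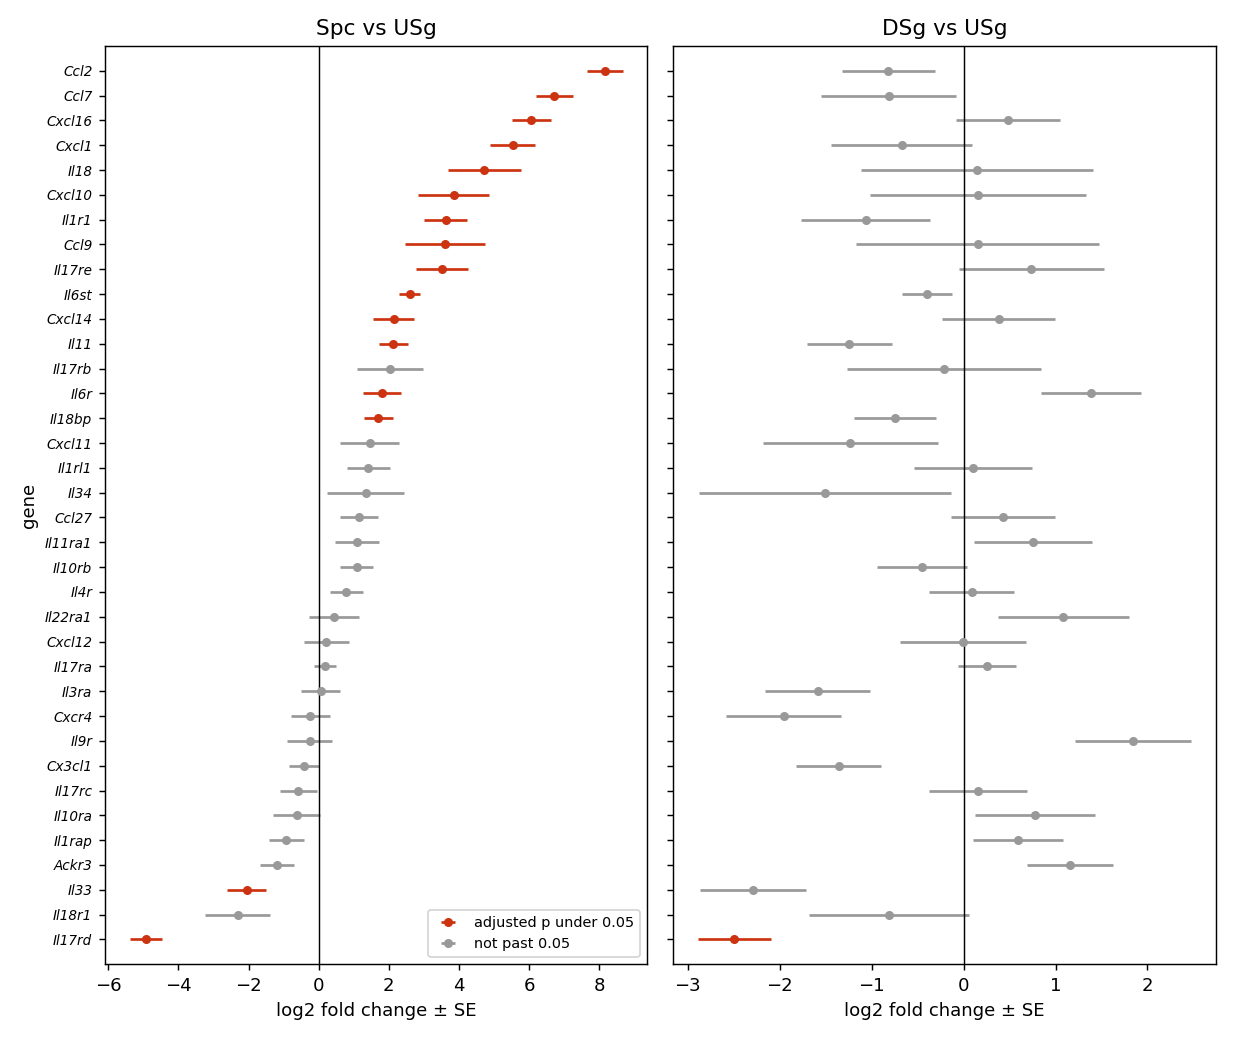
Log2 fold change ± SE of the named genes with more than 3 counts in each group, for Spc vs USg (left) and DSg vs USg (right, on a narrower axis), red where the edgeR adjusted p is under 0.05. In the left panel Ccl2 reaches 8.16 and Il17rd -4.93, while in the right panel Il17rd, at -2.49, is the 1 red point.

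Of the other interleukin receptors, Il10rb, the chain shared by the receptors for interleukin-10 and interleukin-22, had 54 and 50 counts in USg, 31 and 33 in DSg and 150 and 148 in Spc. It was higher in Spc than in DSg, with a log2 fold change of 1.54 ± 0.48 (edgeR adjusted p = 0.0436). This call lay near the threshold and was lost when any 1 of the Spc or DSg libraries was left out and with total-count or upper quartile scaling (adjusted p between 7.21e-05 and 0.19). Il9r had 12 and 12 counts in USg, 30 and 42 in DSg and 13 and 13 in Spc. At 11.7 ± 0.574 CPM its level was higher in both DSg libraries than in the other 4, and it was lower in Spc than in DSg by -2.11 ± 0.62 (edgeR adjusted p = 0.0358). The call of Il9r was likewise lost when any 1 of those 4 libraries was left out (adjusted p between 0.00111 and 0.279). Its difference between DSg and USg, 1.84 ± 0.63, was not called (edgeR adjusted p = 0.167).

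Il4r and Il3ra had at least 34 counts in every library but differed between replicates and were not called. Il4r had 42 and 189 counts in USg, 44 and 132 in DSg and 225 and 198 in Spc (Spc vs USg 0.79 ± 0.46, edgeR adjusted p = 0.21). Il3ra had 55 and 409 counts in USg, 34 and 66 in DSg and 316 and 167 in Spc, and its USg libraries differed widely from each other, at 47.0 ± 36.5 CPM. Il10ra and Il22ra1 had 8 to 42 and 4 to 39 counts and were not called. Il34, a ligand of the receptor CSF1R, had 9 and 3 counts in USg, 0 and 4 in DSg and 31 and 14 in Spc (Spc vs USg 1.34 ± 1.11, edgeR adjusted p = 0.375). Il22ra2, a soluble binding protein of interleukin-22, had 1 and 5, 3 and 11, and 11 and 6 counts and did not pass the filter. Also tested and not called in any comparison were Il16, Il24, Il13ra1, Il21r, Il2rb and Il2rg, at no more than 30 counts in any library.

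The 63 members that did not pass the filter together averaged 1.49 and 2.33 counts a gene in the USg libraries, 0.952 and 8.46 in DSg and 2.95 and 3.17 in Spc. Their levels were highest in DSg 2 for 51 of the 63, and 19 of them reached 10 counts in DSg 2 alone, among them Il1rapl1, Il1rapl2, Il20, Il20ra, Il20rb, Il2ra, Il36g and Il36rn. Olfactory receptor genes averaged 4.86 counts in DSg 2 and 0.322 to 1.35 in the other libraries. In 39 of the 124 genes no library had 10 counts, among them Il2, Il4, Il5, Il10 and Il13, cytokines known from T cells.

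In DSg compared with USg, both DSg libraries lay above both USg libraries for 27 members (21.8% of all symbols) and below them for 12 (15.8%). Members with an unadjusted edgeR p under 0.05 that missed the threshold and lay below USg were Il33, Cxcr4, Cx3cl1, Il3ra and Il11. Those above USg were Ackr3, Il9r and Il6r, and 5 genes with at most 3 counts over the USg group (Ccl3, Cxcl2, Il1a, Il21r and Il6). With USg 1 and DSg 1 left out, which leaves DSg 2 as the only DSg library, 36 members were called higher (21.3% of all genes tested) and 6 lower (23.8%). In Spc compared with DSg, both Spc libraries lay above both DSg libraries for 40 members (27.5% of all symbols) and below them for 23 (30.3%). Without USg 1 and DSg 1, 30 were called higher (29.3% of all genes tested) and 26 lower (29.8%) in Spc than in DSg. The part of the low counts in DSg 2 in these calls was not tested.

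Genes that work with this set but have other names were followed through 4 lists. The shares of all tested genes stand beside them, 17.9% higher and 16.6% lower in Spc than in USg. In Spc vs DSg these shares were 14.8% and 11.7%, and in DSg vs USg 0.565% and 1.92%. Of 23 tested cytokines and receptors outside the naming rule, 6 were higher and 5 lower in Spc than in USg, 5 were higher and 5 lower than in DSg, and 1 (Csf3r) was lower in DSg than in USg. Several of the higher ones share gp130 with interleukin-6. Lif had 23 and 65 counts in USg, 6 and 16 in DSg and 813 and 658 in Spc, and Osmr had 18 and 16, 13 and 21, and 810 and 789. Their log2 fold changes for Spc vs USg were 3.87 ± 0.38 (edgeR adjusted p = 2.73e-04) for Lif and 5.16 ± 0.48 (edgeR adjusted p = 2.27e-04) for Osmr. Among the lower ones were other receptors of that family, the LIF receptor chain Lifr (-1.86 ± 0.32, edgeR adjusted p = 0.00274) and the CNTF receptor chain Cntfr (-3.41 ± 0.43, edgeR adjusted p = 6.84e-04), both picked here after their values were seen. Csf3r, the G-CSF receptor, had 107 and 389 counts in USg, 20 and 48 in DSg and 9 and 8 in Spc, and was lower in DSg than in USg by -2.38 ± 0.43 (edgeR adjusted p = 0.0304). The list's median log2 fold change was -0.22 for Spc vs USg, against -0.04 over all genes tested.

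Signalling genes downstream made up the other lists. Of 24 tested JAK, STAT and SOCS genes, 4 were higher and 4 lower in Spc than in USg, shares close to the 17.9% and 16.6% of all tested genes, and none was called in DSg vs USg (median for Spc vs USg 0.18). Socs2, a feedback inhibitor of cytokine receptors, was higher by 3.87 ± 0.54 (edgeR adjusted p = 0.00103) and Stat3, the main STAT of gp130, by 1.18 ± 0.30 (edgeR adjusted p = 0.0149). Stat5b was lower by -2.39 ± 0.44 (edgeR adjusted p = 0.0036), and Jak1, the kinase bound to gp130, by -1.21 ± 0.38 (edgeR adjusted p = 0.0366). Of 19 tested genes between the interleukin-1 and Toll-like receptors and NF-kB, 4 were higher and 0 lower in Spc than in USg (median 0.62). The share higher was near the 17.9% of all tested genes, of which 16.6% were lower. Against DSg, 6 were higher and 0 lower in Spc, beside 14.8% and 11.7% of all tested genes. The higher genes include Nfkb1, at 1.75 ± 0.36 for Spc vs USg (edgeR adjusted p = 0.00574), and Irak3, an inhibitor of the pathway, at 3.19 ± 0.43 (edgeR adjusted p = 9.4e-04). Nfkbia, which encodes the NF-kB inhibitor IkB-alpha, was higher in Spc than in DSg by 2.22 ± 0.36 (edgeR adjusted p = 0.00283), and its difference from USg, 0.88 ± 0.34, was not called (edgeR adjusted p = 0.0749). Of 18 tested transducers of chemokine receptors, 8 were lower and none higher in Spc than in USg (median -0.83). Against DSg, 5 were lower and 2 (Gnai2 and Gng2) higher in Spc. Elmo1 and Gnai2 were lower in DSg than in USg, by -2.30 ± 0.38 (edgeR adjusted p = 0.0234) and -1.45 ± 0.29 (edgeR adjusted p = 0.0437).

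Markers of cells other than germ cells also moved with Spc. For comparison, 17.9% of all tested genes were called higher and 16.6% lower in Spc than in USg. Of 9 tested peritubular and stromal markers, 8 were higher and 0 lower in Spc than in USg, and the list summed to 528 and 267 CPM in USg, 318 and 249 in DSg and 2885 and 2757 in Spc. Dcn, a stromal proteoglycan, had 6 and 12 counts in USg, 8 and 19 in DSg and 2729 and 2561 in Spc. Of 8 tested Sertoli cell markers, 5 were higher and 0 lower, with sums of 414 and 470 CPM in USg, 250 and 214 in DSg and 1379 and 1110 in Spc. Of 5 Leydig cell markers, Star had 2 and 6, 6 and 7, and 805 and 777 counts, while Insl3, Cyp17a1 and Lhcgr had at most 6 counts in a Spc library. Cyp11a1, of the same list, had 5 and 15, 15 and 22, and 4 and 5 counts and was lower in Spc than in DSg by -2.64 ± 0.78 (edgeR adjusted p = 0.0356). Of 15 tested leukocyte markers out of 24, 7 were higher and 1 (Cd3e) lower in Spc than in USg, and the 24 summed to 99.9 and 76.9 CPM in USg, 65.5 and 120 in DSg and 140 and 160 in Spc. Cd14, a monocyte marker, had 0 and 7, 1 and 11, and 71 and 93 counts, Cd68 had 6 and 22, 8 and 18, and 98 and 125, and Cd3g was at 0 in both Spc and both USg libraries. Lyz2, C1qa, Cd163, Fcer1g and Ptprc were also called higher in Spc than in USg. Other myeloid markers were not: Csf1r, Itgam and Mrc1 were not called, with Mrc1 at -0.62 ± 0.34 (edgeR adjusted p = 0.19). Adgre1 and Aif1 had at most 8 counts in a Spc library and were not tested. In Spc vs DSg, 3 of the 15 leukocyte markers were higher (Cd14, Cd68 and Lyz2) and 1 (Cd3e) was lower. Of all tested genes, 14.8% were higher and 11.7% lower in Spc than in DSg. Of 5 tested endothelial markers, 1 was higher and 3 were lower in Spc than in USg, with sums of 210 and 138 CPM in USg, 62.2 and 83.2 in DSg and 35.5 and 46.2 in Spc. The part of these cells in the levels of Ccl2, Il6 and the other members in Spc was not tested.

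**Figure D5:**
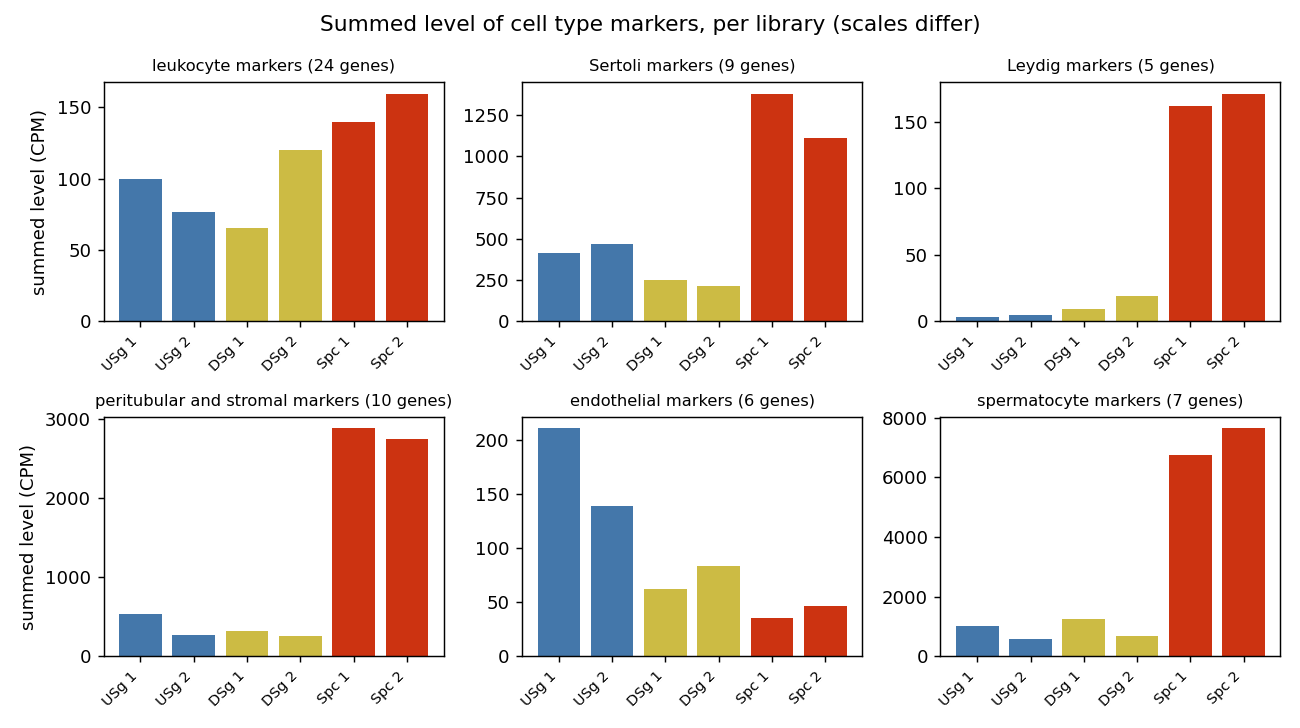
Summed level in CPM of 6 lists of cell type markers in each library (linear axes that differ between panels). Peritubular and stromal markers reach 2885 and 2757 CPM and spermatocyte markers 6752 and 7640 CPM in the Spc libraries, while endothelial markers are highest in USg, at 210 and 138 CPM.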

How the data were processed

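The deposited file gives raw read counts for each gene symbol, whole numbers that sum to different totals, and it was used without change. Tools named in the submitters' processing notes are edgeR 3.2.4, STAR 2.5.3a, Subread 1.4.6, featureCounts, HOMER, Picard 1.127 and Bowtie2 2.2.3, and the builds are rn5 and rn6. Which of these produced the counts, with what annotation and strand setting, is not given in the sources used here. Reads of related genes (Cxcl1, Cxcl2 and Cxcl3, Ccl2, Ccl7 and Ccl12, Ccl3 and Ccl4, Ccl6 and Ccl9, Ccl21) may have been split between them. In RefSeq, 22 members overlap a protein-coding gene. The values of both kinds of gene are uncertain.

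The 6 libraries were fitted together with edgeR 4.0.16 (limma 3.58.1, R 4.3.3). Genes passed filterByExpr by group (minimum count 10, minimum total count 15), scaling was by TMM, and the quasi-likelihood F-test was two-sided with 3 residual degrees of freedom. The SE was obtained from the log2 fold change and F, as its size divided by the root of F. A group with 0 counts gives only a bound on the fold, set at 3 counts for that group, and a group of 1 to 3 counts gives a ratio with an exact binomial 95% interval. Intervals cover counting error only. The procedure was tested on simulated data.

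Named were every member called in any comparison, every member with a group mean of at least 5 CPM, 16 members whatever their result, and members with at least 10 counts in a library by count or range. Genes of the lists were named in part by the size of a called change and in part after their values were seen (Lifr, Cntfr, Stat3, Jak1, Nfkbia). The members, lists and tests were chosen with earlier results of these data known. Alternatives were each library left out in turn, a replicate block, fits of 4 libraries, DESeq2 1.42.0, limma-voom, 3 other scalings (RLE, upper quartile, total count), a stricter filter (5 CPM) or none, ribosomal RNA genes left out, and thinning. RefSeq tables of GRCr8 gave names, chromosomes, overlaps and promoters. The values of 1 receptor gene are not reported here.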

Additional observations from a re-analysis of the deposited data

How the results depend on the processing

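Results are given for Spc vs USg, Spc vs DSg and DSg vs USg as numbers of members called. Members higher in Spc vs USg (24 in the full fit) were 15 to 30 with 1 library left out and 40 without USg 1 and DSg 1, an alternative chosen after the data were seen. Members lower (2) were 1 to 4, 6 and, in a fit of only the 4 libraries compared, 4. For Spc vs DSg, members higher (18) were 12 to 26 with 1 library left out, 30 without USg 1 and DSg 1 and 28 with no filter, and members lower (3) were 2 to 4 and 26. For DSg vs USg, members higher (0) were 0 to 1 with 1 library left out, 36 without USg 1 and DSg 1 and 1 with no filter. Members lower (1) were 0 to 3, 6 and, with no filter, 5, with DESeq2 2, and in a fit of the 4 libraries 0. The cause was not tested. Of all tested genes, 13.4% were higher in Spc vs DSg with no filter. In DSg vs USg with no filter, 1.13% were higher and 5.10% lower. The fits of only the 4 libraries compared gave 18.3% lower in Spc vs USg and 0.733% lower in DSg vs USg. DESeq2 gave 4.44% lower in DSg vs USg. Where a group is left with 1 library, that library is assumed to vary like the others. Cxcl12 in DSg vs USg reversed without USg 1 and DSg 1 (1.50, against -0.01). The mean summed level in Spc was 3560 CPM of whole libraries, against 3745.

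With the replicate block, 0 members were higher and 2 lower in DSg vs USg, 25 and 3 in Spc vs USg, and 21 and 3 in Spc vs DSg. The shares of all tested genes with the block were, in the same order, 1.38% and 3.57%, 19.7% and 17.3%, and 16.9% and 12.7%. The pairing was checked by the correlation of replicate differences over 12210 genes, 0.25, 0.0105 and -0.265 for USg with DSg, DSg with Spc and USg with Spc. The labels do not say that a number marks a shared culture or day, and the replicate 1 libraries of USg and DSg also share a high rRNA share. The block raised the calls over all genes in DSg vs USg to 168 higher and 436 lower, against 69 and 234. Upper quartile and total-count scaling moved the median log2 fold change of all genes to 0.15 and 0.16 for DSg vs USg and to -0.25 and -0.22 for Spc vs DSg, against 0.01 and -0.03. Of the named members' values, 49 lost their call and 38 gained one with 1 library left out, where 54 of 828 values turned sign, none of them called, and under the other alternatives 14 lost and 83 gained one. At these depths a member at or under 10 counts in DSg 2, or 2 to 4 in the other libraries, cannot be separated from the olfactory receptor background.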
